A study of Mus musculus with 19 samples.

Results

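The enzymes that carry methionine through its cycle, pass its sulfur on to cysteine and make or remove hydrogen sulfide were followed in fasted and ad libitum fed mouse kidneys. They were chosen by name, with earlier results of these data known. Of 10 listed genes (Cth, Cbs, Mpst, Bhmt, Gnmt, Mat2a, Ahcy, Ethe1, Cdo1 and Csad), 9 had a probe set that named the gene alone, with 10 such probe sets in all because Cbs had 2. The arrays held 45141 probe sets and 17097 named genes. The expression of Mat2a was not analysed here. Kidney RNA came from 19 male mice without renal ischemia, 1 Affymetrix HT MG-430 PM array per mouse. The young-lean animals belonged to the C57BL/6J strain, were aged 10 to 14 weeks and weighed 22 to 25 g, and 5 ate ad libitum while 4 were fasted for 3 days with free water. The aged-overweight animals, FVB-C57BL/6J hybrids of the F1 generation, averaged 73 weeks and 47 g, and 5 ate ad libitum while 5 were fasted for 3 days with free water. Age, strain and body weight therefore cannot be told apart. Values are log2 levels, where 1 unit is a doubling of the signal.

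Methionine is activated to S-adenosylmethionine, the methyl donor of the cell, and returns as homocysteine once the methyl group has been spent. Homocysteine is either methylated back to methionine, with betaine or folate as the donor, or condensed with serine on the transsulfuration route to cysteine. Cysteine feeds glutathione, taurine and hydrogen sulfide, and the mitochondria oxidise sulfide to thiosulfate and sulfate. The proximal tubule of the kidney is a main site of these reactions outside the liver.

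The array medians lay between 3.44 and 3.49 in aged and between 4.15 and 4.21 in young mice, so that levels were compared within an age. Tubule markers were high on every array (mean level of 6 proximal tubule markers 10.68 to 11.27), and the 4 adrenal cortex markers, at a mean level of 3.15 to 3.78, did not pass the test in either age. Of 6 macrophage markers 1 fell in aged and 5 in young kidneys, of 6 markers of the loop, distal tubule and collecting duct 1 fell in aged and 2 in young kidneys, and neither of 2 podocyte markers passed. Liver transcripts were uneven. Over the 11 of 13 liver markers that were measured, the mean level was 9.49 in aged fasted mouse33 and 5.40 to 5.72 in the other 4 aged fasted mice, against 5.22 to 6.35 with food. Among young mice it was 8.08 in fasted mouse339, 6.93 to 7.25 in the other fasted mice and 6.41 to 7.27 in fed mice. Of these markers 1 rose in aged kidneys, and 5 rose and 1 fell in young kidneys. Since some markers changed with fasting, a marker level fitted as a covariate can also take up part of the fasting effect. Member changes within an age that mouse33 and mouse339 moved by over 1.5 times, and those of Bhmt, are given with and without these 2 arrays.

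The sequences before the start sites of the 4 genes that changed with fasting in both ages are shown to compare what stands upstream of 2 that rose, Bhmt and Ahcy, and 2 that fell, Cbs and Ethe1. Each is the 250 bases upstream of the RefSeq start in build GRCm38.p6, 5′ to 3′ on the strand of the gene, with the E-box of Cbs and the AGGTCA sites, or their reverse complement, in capitals. Ethe1 has a further annotated start, not printed.
Bhmt, chr13:93637759-93638008, minus strand: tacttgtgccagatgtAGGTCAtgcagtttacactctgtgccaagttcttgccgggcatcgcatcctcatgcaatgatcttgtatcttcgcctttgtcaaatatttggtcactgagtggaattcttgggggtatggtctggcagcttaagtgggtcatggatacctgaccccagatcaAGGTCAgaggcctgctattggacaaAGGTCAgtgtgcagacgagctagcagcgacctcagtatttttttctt
Ahcy, chr2:155074498-155074747, minus strand: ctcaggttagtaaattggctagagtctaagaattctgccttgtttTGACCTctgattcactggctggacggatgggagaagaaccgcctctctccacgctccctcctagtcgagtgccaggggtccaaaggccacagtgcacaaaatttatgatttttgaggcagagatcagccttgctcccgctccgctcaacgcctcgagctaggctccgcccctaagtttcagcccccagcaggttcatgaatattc
Cbs, chr17:31637206-31637455, minus strand: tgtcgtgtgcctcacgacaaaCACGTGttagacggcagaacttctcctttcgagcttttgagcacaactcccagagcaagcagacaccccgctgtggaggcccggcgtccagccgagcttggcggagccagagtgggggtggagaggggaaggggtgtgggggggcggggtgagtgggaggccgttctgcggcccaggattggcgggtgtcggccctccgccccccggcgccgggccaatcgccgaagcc
Ethe1, chr7:24587293-24587542, plus strand: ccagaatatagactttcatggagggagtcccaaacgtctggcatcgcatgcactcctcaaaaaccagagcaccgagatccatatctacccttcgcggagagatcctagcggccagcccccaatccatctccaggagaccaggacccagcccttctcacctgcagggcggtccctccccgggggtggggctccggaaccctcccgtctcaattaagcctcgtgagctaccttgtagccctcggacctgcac

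On both strands, 7 motifs were searched in these windows and in those of the other listed genes with an entry, 8 genes and 12 windows. They were the CRE TGACGTCA (in 1.55% of 32851 promoter windows), its core TGACG (17.8%) and the amino acid response element TGATGNAA (3.45%). The others were the antioxidant response element TGACNNNGC (10.2%), the E-box CACGTG (6.02%), the PPAR direct repeat (0.0335%) and AGAACA (16.1%). AGAACA is only a part of the glucocorticoid receptor site. The CRE contains its core. Cbs held an E-box at -229 to -224 from the start, Mpst an antioxidant response element at -12 to -4 in 1 of its windows and Csad a CRE core at -54 to -50. None of the 7 was found in the windows of Bhmt, Ahcy, Ethe1, Gnmt or Mat2a. An eighth motif, AGGTCA, is only a part of nuclear receptor sites, among them the PPAR direct repeat. It was added because it was noticed in the printed Bhmt sequence, so its count there is a description of that choice. It stood at -234 to -229, -72 to -67 and -47 to -42 in Bhmt, once in Ahcy and once in Gnmt, while 14% of all windows held it at least once and 1.36% at least 2 times. Cth and Cdo1 had no entry.

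In aged kidneys, 2 of the 9 genes rose, Bhmt and Ahcy, and 2 fell, Cbs and Ethe1. In young kidneys, 4 rose, Bhmt, Ahcy, Cdo1 and Cth, and the same 2 fell. Rose and fell stand for an adjusted p of at most 0.05 by limma over all probe sets. Among all 17097 genes, 4.32% rose and 4.84% fell in aged kidneys, and 10.7% rose and 12.5% fell in young kidneys. Because the 9 genes were chosen with earlier results of these data known, the shares here are a description. With a change of at least 1.5-fold as well, 3 of the 9 remained in aged kidneys (Bhmt, Cbs and Ethe1; 2.67% of all genes) and 1 in young kidneys (Bhmt; 6.49%). The levels of fasted and fed mice did not overlap for 3 genes in aged kidneys (10.2% of all genes) and for 4 in young kidneys (21.3%). The median log2 change of the 9 genes was 0.16 in aged and 0.17 in young kidneys, and that of all genes was -0.01 in both. In bulk tissue, fewer cells of a type and less RNA per cell cannot be told apart.

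**Figure D1:**
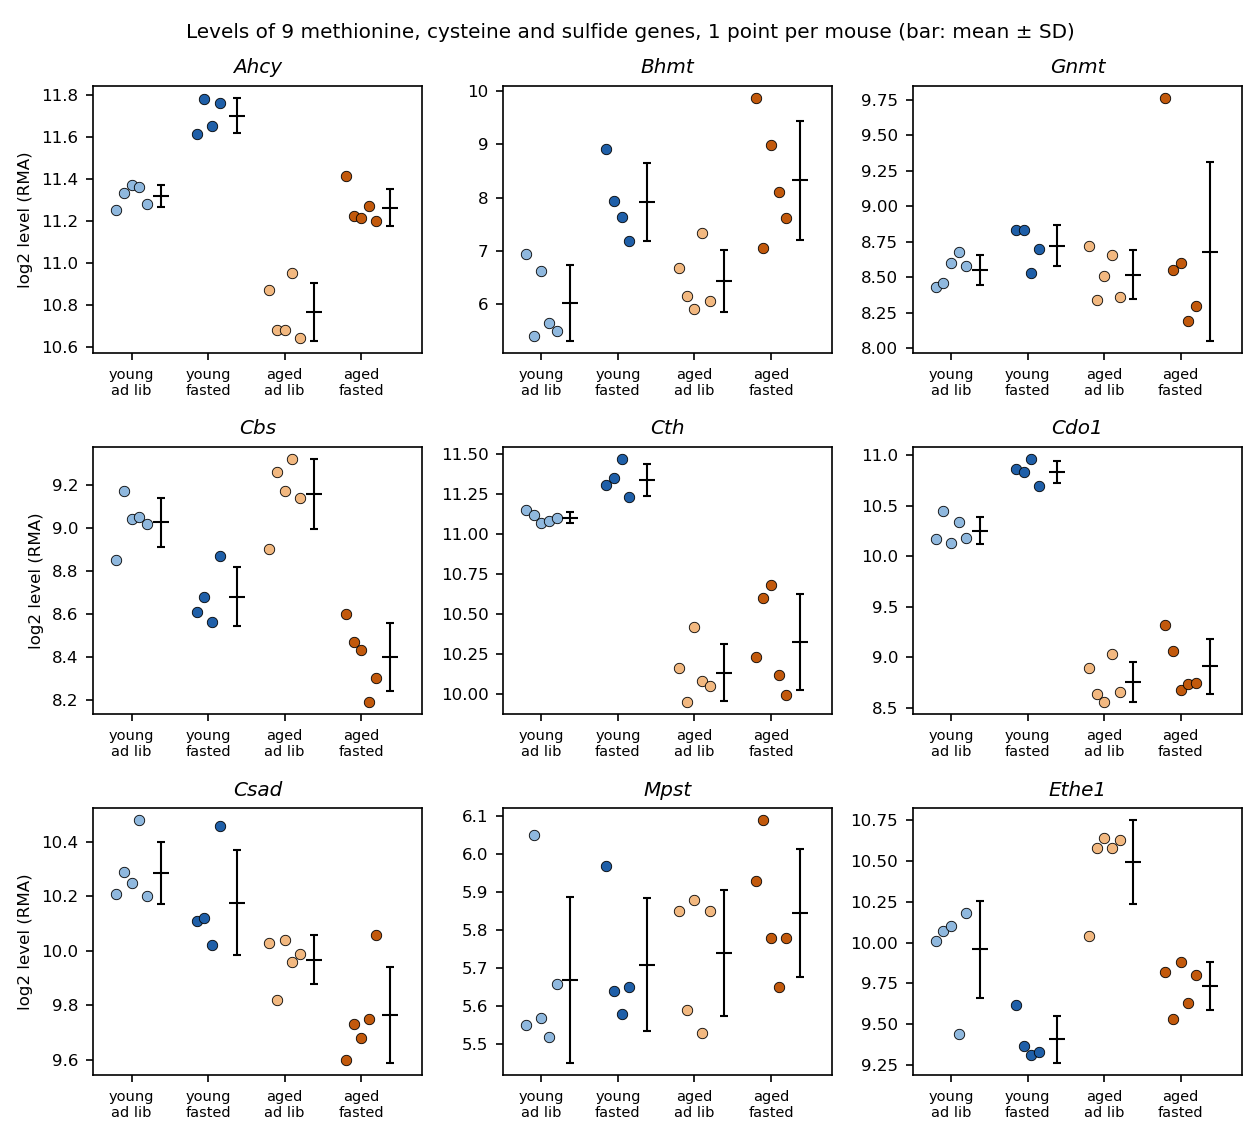
Log2 level (y axis, a scale of its own in each panel) of 9 genes in the 4 groups, with 1 point per mouse and the group mean ± SD beside it (n = 5, 4, 5 and 5 from left to right). Ahcy was higher in every fasted mouse than in any ad libitum fed mouse of its age, and the single high point of Gnmt is aged fasted mouse33 at 9.76.

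Bhmt, which passes a methyl group from betaine to homocysteine, had the largest change of the 9 genes in both ages. Its level in aged ad libitum fed mice was 6.68, 6.16, 5.92, 7.33 and 6.07, and in aged fasted mice 9.86, 7.05, 8.98, 8.10 and 7.61. These groups overlapped, since the lowest fasted mouse was below the highest fed one. In young mice it was 6.95, 5.40, 6.63, 5.66 and 5.50 with food and 8.91, 7.93, 7.63 and 7.18 after fasting, without overlap. The rise was 3.71-fold in aged kidneys (log2 1.89, SE 0.45, limma adjusted p = 0.0260) and 3.70-fold in young kidneys (log2 1.89, SE 0.38, limma adjusted p = 0.00491). The highest Bhmt level of each age was in mouse33 and mouse339, the arrays with the most liver transcripts. Without mouse33 the aged rise was 1.51 (limma adjusted p = 0.0278), and without mouse339 the young rise was 1.55 (limma adjusted p = 0.0108). With the liver marker level as a covariate the changes were 1.51 and 1.23 and still passed. The aged call was lost in 7 of 20 alternatives, by the ordinary test without moderation (adjusted p = 0.118), with a variance trend and robust fitting (limma adjusted p = 0.0958), and when fed mouse36, mouse37 or mouse43 or fasted mouse39 or mouse41 was left out (limma adjusted p = 0.0551 to 0.0681), while the log2 change stayed between 1.51 and 2.21.

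Ahcy, which splits S-adenosylhomocysteine into homocysteine and adenosine, rose less but with little spread. In aged mice it was 10.87, 10.68, 10.68, 10.95 and 10.64 with food and 11.41, 11.22, 11.21, 11.27 and 11.20 after fasting. In young mice it was 11.25, 11.33, 11.37, 11.36 and 11.28 with food and 11.61, 11.78, 11.65 and 11.76 after fasting. Neither age had any overlap. The log2 change was 0.50 in aged (SE 0.08, limma adjusted p = 0.00242) and 0.38 in young kidneys (SE 0.06, limma adjusted p = 0.000887), and both passed under every alternative except the 1.5-fold minimum.

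Gnmt, which spends S-adenosylmethionine on glycine, did not pass in either age. Its mean ± SD was 8.52 ± 0.17 in aged ad libitum fed (n = 5) and 8.68 ± 0.63 in aged fasted mice (n = 5). Mouse33 stood at 9.76 and the other 4 aged fasted mice at 8.19 to 8.60. The log2 change of 0.16 (limma adjusted p = 0.798) became -0.11 without mouse33 (limma adjusted p = 0.662). In young kidneys it was 0.17 (SE 0.08, limma adjusted p = 0.178).

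**Figure D2:**
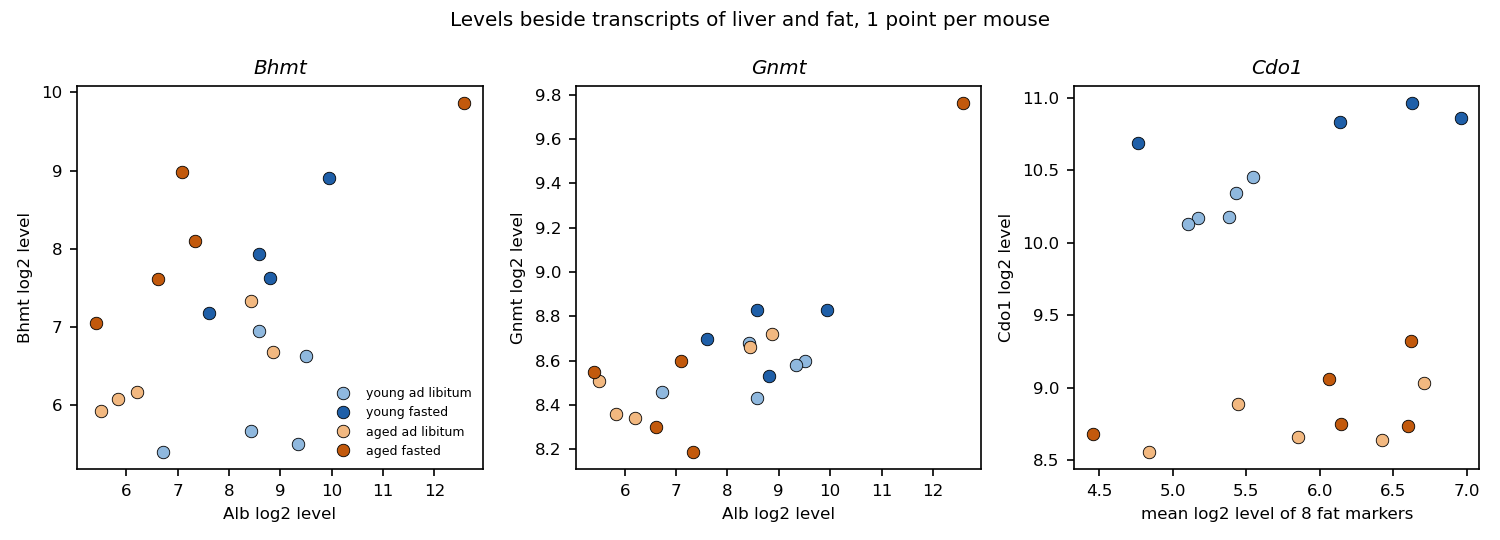
Log2 levels of Bhmt and Gnmt (y axes) against Alb, which encodes the main plasma protein made by liver, and of Cdo1 against the mean log2 level of 8 fat markers, with 1 point per mouse coloured by group. Aged fasted mouse33 is alone at the right of the first and second panels (Alb 12.58), and in the last panel the 4 young fasted mice lie at a Cdo1 level of 10.69 to 10.96 and the 5 young ad libitum fed mice at 10.13 to 10.45.

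Cbs, which joins homocysteine to serine in the first step of transsulfuration, fell in both ages. In aged mice its brightest probe set was at 8.90, 9.26, 9.17, 9.32 and 9.14 with food and at 8.60, 8.47, 8.43, 8.19 and 8.30 after fasting, without overlap. In young mice it was at 8.85, 9.17, 9.04, 9.05 and 9.02 with food and at 8.61, 8.68, 8.56 and 8.87 after fasting, where the highest fasted mouse was just above the lowest fed one. The fall was 1.69-fold in aged (log2 -0.76, SE 0.10, limma adjusted p = 0.000562) and 1.27-fold in young kidneys (log2 -0.35, SE 0.08, limma adjusted p = 0.0103). The other probe set of Cbs changed by -0.80 in aged (SE 0.12, limma adjusted p = 0.00150) and by -0.29 in young kidneys (SE 0.10, limma adjusted p = 0.0607), so that the young call held for 1 of 2 probe sets. The young call was also lost with the liver (log2 -0.27, limma adjusted p = 0.0702) or the fat marker level (log2 -0.26, limma adjusted p = 0.0790) as a covariate. Some liver and fat markers themselves changed with fasting in young kidneys, so these covariates can take up part of the fasting effect. The aged fall was as large without mouse33 (-0.81).

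Cth, which releases cysteine from cystathionine and can form hydrogen sulfide, rose in young kidneys. It was at 11.15, 11.12, 11.07, 11.08 and 11.10 with food and at 11.31, 11.35, 11.47 and 11.23 after fasting, without overlap. The change was small (log2 0.23, SE 0.06, limma adjusted p = 0.0184), and it did not pass with all arrays in one fit (0.23, limma adjusted p = 0.214), with the liver (0.24, limma adjusted p = 0.0578) or fat marker level (0.18, limma adjusted p = 0.120) as a covariate or without young fasted mouse343 (0.19, limma adjusted p = 0.0511). In aged kidneys the groups overlapped widely, 9.95 to 10.42 with food and 9.99 to 10.68 after fasting, and the log2 change was 0.19 (SE 0.14, limma adjusted p = 0.518). It was 0.10 without fasted mouse39, 0.12 without fasted mouse38 and 0.27 without fasted mouse42.

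Cdo1, which oxidises cysteine to cysteine sulfinate, rose in young kidneys from 10.17, 10.45, 10.13, 10.34 and 10.18 to 10.86, 10.83, 10.96 and 10.69. The lowest fasted mouse was above the highest fed one, and the rise was 1.49-fold (log2 0.58, SE 0.08, limma adjusted p = 0.000533). In aged mice it was 8.89, 8.64, 8.56, 9.03 and 8.66 with food and 9.32, 9.06, 8.68, 8.74 and 8.75 after fasting, a log2 change of 0.16 that did not pass (SE 0.13, limma adjusted p = 0.603). The highest of these was mouse33, and the change was 0.053 without it and 0.058 with the liver marker level as a covariate. Over the 8 of 9 fat markers measured, the mean level in young mice was 5.10 to 5.54 with food and 6.96, 6.14, 6.63 and 4.77 after fasting. Of these markers 2 rose and 1 fell in young kidneys, and 0 rose and 1 fell in aged kidneys. Young fasted mouse344, at the fat marker level of 4.77, had a Cdo1 level of 10.69. With the fat marker level as a covariate the change was 0.48 (limma adjusted p = 0.00491). Csad, which turns cysteine sulfinate into hypotaurine, did not pass in aged (log2 -0.20, SE 0.09, limma adjusted p = 0.230) or young kidneys (-0.11, SE 0.09, limma adjusted p = 0.520). In aged mice it ranged from 9.82 to 10.04 with food and from 9.60 to 10.06 after fasting, where mouse42 alone was above 9.75. Without mouse42 the aged change of Csad was -0.28 and passed (limma adjusted p = 0.0477).

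The 2 enzymes of sulfide handling differed. Mpst, which transfers sulfur from mercaptopyruvate, was at 5.53 to 5.88 in aged fed and 5.65 to 6.09 in aged fasted mice, and at 5.52 to 6.05 in young fed and 5.58 to 5.97 in young fasted mice. Its log2 change was 0.11 in aged (limma adjusted p = 0.651) and 0.04 in young kidneys (limma adjusted p = 0.871; -0.044 without mouse339), and both groups overlapped in each age. Ethe1, the mitochondrial persulfide dioxygenase, fell in both. In aged mice it was at 10.04, 10.58, 10.64, 10.58 and 10.63 with food and at 9.82, 9.53, 9.88, 9.63 and 9.80 after fasting, without overlap. In young mice it was at 10.01, 10.07, 10.10, 9.44 and 10.18 with food and at 9.62, 9.37, 9.31 and 9.33 after fasting, and the overlap came from young ad libitum fed mouse349 at 9.44. The fall was 1.70-fold in aged (log2 -0.76, SE 0.12, limma adjusted p = 0.00207) and 1.47-fold in young kidneys (log2 -0.56, SE 0.14, limma adjusted p = 0.0138). The young fall did not pass the ordinary test without moderation (adjusted p = 0.0682). Of the 6 of 8 proximal tubule markers measured, 3 fell in each age, with log2 changes in aged and young kidneys of -1.09 and -0.89 for Slc5a2, -0.37 and -0.32 for Slc22a6 and -0.59 and -0.89 for Slc7a13. The other 3, which did not pass, had changes of 0.27 and -0.01 for Slc5a12, 0.10 and -0.01 for Slc22a12 and -0.05 and 0.10 for Cubn. The part of these markers in the falls of Cbs and Ethe1 was not tested. The mean of the 6 markers was 10.90 to 11.27 in aged fed and 10.79 to 10.98 in aged fasted mice, and 10.93 to 11.17 in young fed and 10.68 to 10.76 in young fasted mice.

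**Figure D3:**
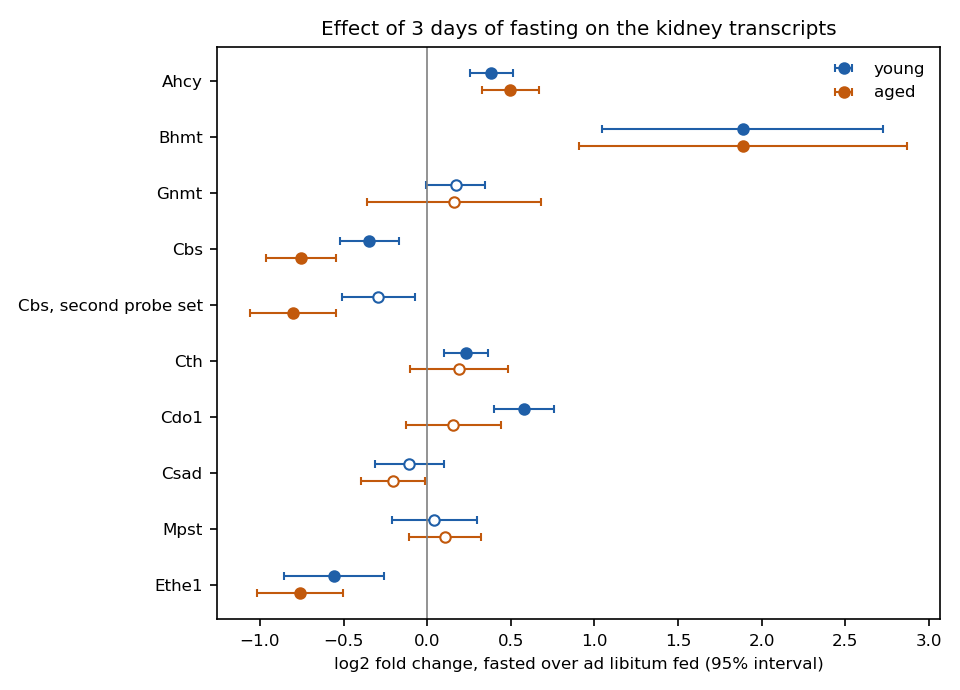
Log2 fold change of fasted over ad libitum fed mice (x axis) with its 95% interval from limma, for each probe set in young and aged kidneys, where filled points passed at an adjusted p of at most 0.05. The intervals of Bhmt are the widest and nearly the same in both ages, and those of Cbs and Cdo1 differ most between the ages.

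Whether fasting acted with a different size in the 2 ages was tested by the difference of the effects, aged minus young, in one fit of all 19 arrays. The arrays may have been normalized separately by age, which cannot be told apart from age itself. An offset between the ages cancels in this difference, but a difference in scale would not. All 9 genes had the same sign in both ages, and 0 of 9 passed by limma, while 2.44% of all genes did. By the ordinary test 0 of 9 passed as well (1.39% of all genes). By limma, 2 of 9 had an unadjusted p under 0.05, as did 15.3% of all genes. These were Cbs, with a difference of -0.41 (95% interval -0.68 to -0.14, limma adjusted p = 0.118), and Cdo1, with -0.42 (-0.77 to -0.08, limma adjusted p = 0.238). The other probe set of Cbs had a difference of -0.51 (-0.85 to -0.17, limma adjusted p = 0.123) and did not pass either. Over 29 alternatives the adjusted p ran from 0.0590 to 0.252 for Cbs and from 0.0565 to 0.411 for Cdo1. For Bhmt the difference was 0.00, with an interval of -1.36 to 1.37 that still holds large differences either way. The intervals of the others were narrower, -0.09 to 0.32 for Ahcy, -0.60 to 0.19 for Ethe1, -0.37 to 0.18 for Csad, -0.27 to 0.40 for Mpst, -0.38 to 0.30 for Cth and -0.60 to 0.58 for Gnmt.

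In the rest of the pathway, 57 of 63 listed genes were measured. In aged kidneys 7 rose and 8 fell, in young kidneys 16 rose and 7 fell, and for 5 the effects of fasting differed between the ages. Among all genes, 4.32% rose and 4.84% fell in aged kidneys, 10.7% rose and 12.5% fell in young kidneys, and 2.44% differed between the ages. The median log2 change of the 57 was 0.02 in aged and 0.01 in young kidneys. Without mouse33 the aged falls of Gss and Lap3 did not pass (limma adjusted p = 0.0661 and 0.0525), and without mouse339 the young rises of Shmt1, Mri1 and Sqor did not (limma adjusted p = 0.0827, 0.0633 and 0.0689). Other young calls were gained without mouse339. Papss2 (0.30, limma adjusted p = 0.0224) and Adi1 (0.30, limma adjusted p = 0.0478) then rose, and Sms fell (-0.32, limma adjusted p = 0.0354). Losses of calls were not limited to mouse33 and mouse339. In aged kidneys 15 pathway genes passed with all arrays and 13 without mouse33. Leaving out any other single aged array gave 10 to 15. In young kidneys 23 passed both with all arrays and without mouse339. Leaving out any other single young array gave 19 to 23.

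Of 10 genes that make betaine, break down its products or handle the carbon units of folate, 4 rose and 6 did not pass in aged kidneys, and 6 rose and 4 did not pass in young kidneys. Gldc, a subunit of the glycine cleavage system, rose by 1.40 in aged (limma adjusted p = 0.000623) and 1.12 in young kidneys (limma adjusted p = 0.00450). Aldh1l1, which oxidises formyl folate, rose by 0.47 and 0.61, Dmgdh, which demethylates the dimethylglycine that Bhmt leaves, by 0.35 and 0.32, and Shmt1, the cytosolic serine hydroxymethyltransferase, by 0.45 and 0.31. Aldh7a1 (0.53) and Shmt2 (0.29) passed in young kidneys. Of 10 other methionine cycle and methylation genes, 0 rose and 1 fell in aged and 1 rose and 2 fell in young kidneys. Gamt, which methylates guanidinoacetate to creatine, fell in both (log2 -0.45 and -0.38). Mat1a, the methionine adenosyltransferase of liver, changed by 0.69 in aged (SE 0.69, limma adjusted p = 0.670) and 0.59 in young kidneys (SE 0.42, limma adjusted p = 0.405). Without mouse33 and mouse339 its changes were -0.15 and 0.042. Mtr, the folate-dependent methionine synthase, changed by -0.79 in young (limma adjusted p = 0.000150) and by -0.35 in aged kidneys (limma adjusted p = 0.214). Bhmt2, a close relative of Bhmt, changed by 0.19 in aged and 0.02 in young kidneys and did not pass. Of 8 methionine salvage and polyamine genes, 2 fell in aged kidneys, Kyat1 (-0.74) and Sms (-0.34), and 1 rose in young kidneys, Mri1 (0.35).

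Downstream of cysteine, 1 of 8 cysteine and taurine genes rose in aged kidneys (Fmo1, which can oxidise hypotaurine, 0.29) and 2 in young kidneys (Fmo1, 0.40, and the taurine transporter Slc6a6, 0.39). Of 10 genes of sulfide and sulfur oxidation, 1 rose and 2 fell in aged and 4 rose and 2 fell in young kidneys. Suox, which oxidises sulfite to sulfate, rose by 0.47 and 0.49, and Tst, a thiosulfate sulfurtransferase, rose by 0.62 in young kidneys and had a change of 0.46 in aged kidneys (limma adjusted p = 0.0566). Sqor, which takes up sulfide in mitochondria, rose by 0.20 in young kidneys (limma adjusted p = 0.0480). Papss1, which activates sulfate, fell in both (log2 -0.46 and -0.51), as did the sulfate transporter Slc26a1 (-0.82 and -1.41). Of 11 glutathione genes, 1 rose and 3 fell in aged and 2 rose and 3 fell in young kidneys, among them Oplah, the oxoprolinase (0.82 and 1.19), and Dpep1, a dipeptidase (-0.91 and -0.67).

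The 5 genes whose fasting effects differed between the ages were Selenbp1, a methanethiol oxidase that yields sulfide (-0.08 in aged and 0.38 in young kidneys, limma adjusted p = 0.00416), Chac2 (-0.22 and -0.80, limma adjusted p = 0.0127) and Chac1 (0.09 and 1.07, limma adjusted p = 0.0164), which both degrade glutathione, Kyat1, a cysteine conjugate lyase (-0.74 and -0.01, limma adjusted p = 0.0332), and Slc26a1 (limma adjusted p = 0.0466). The count was 2 by the ordinary test and 3 with the liver marker level as a covariate or without any one of 9 single mice (young ad libitum fed mouse346, mouse348 and mouse350, young fasted mouse339, mouse343 and mouse344, aged ad libitum fed mouse34, and aged fasted mouse41 and mouse42).

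**Figure D4:**
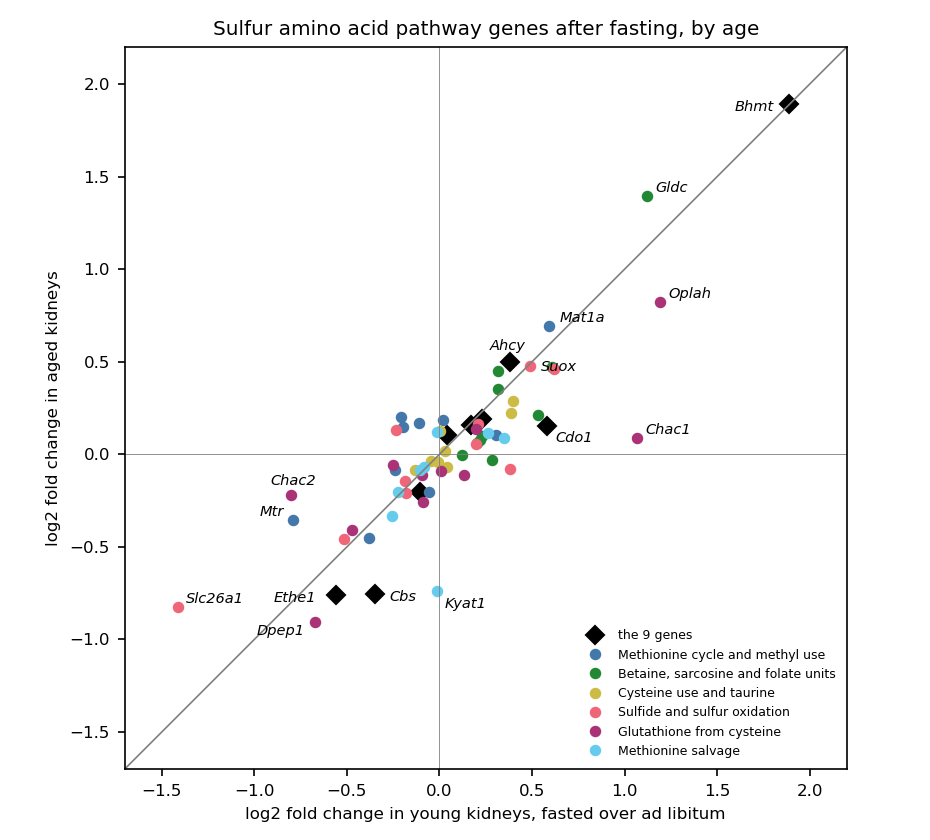
Log2 fold change of fasted over ad libitum fed mice in aged (y axis) against young kidneys (x axis) for the 9 genes (diamonds) and 57 pathway genes (circles, coloured by list), with the line of equal change in grey. Bhmt, Gldc and Oplah stand highest in both ages, and Chac1, Slc26a1 and Kyat1 lie away from the line.

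The genes whose levels most resembled each member were ranked by Pearson's r over the 19 arrays after centring each age, which includes the fasting effect itself, so the values are a description. For Bhmt these were Bbox1 (0.91), Nudt7 (0.91) and Hacd1 (0.90), for Ahcy Akr1c13 (0.97), Akr1c12 (0.97) and Kng1 (0.97), and for Cbs Fads3 (0.95), Ttyh2 (0.94) and Galns (0.93). For Ethe1 they were Tfpi2 (0.93), Aldh3a2 (0.92) and As3mt (0.91), for Cdo1 Nr1i3 (0.89), Egln3 (0.88) and Rpl17 (0.87), and for Cth Hspa2 (0.82), Angptl1 (0.81) and Sat1 (0.80).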

How the data were processed

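Background correction and normalization were done by the authors with RMA, and the deposited values are log2 levels of 45141 probe sets on 19 arrays. Medians differ between the ages, so the arrays may have been normalized separately by age. Probe sets were named from the platform annotation provided: 28898 carried 1 symbol, 551 several and 15692 none listed. A gene was taken at its brightest probe set. Fasted and ad libitum fed mice were compared with limma 3.58.1 in R 4.3.3, separately by age, and the difference between the effects in one fit of the 4 groups, and p was adjusted by Benjamini-Hochberg across every probe set. The number of arrays limits the precision. The scripts were tested on simulated data.

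The genes and lists were chosen with earlier results of these data known. The genes named are the members, members of the pathway and marker lists, and the 3 most similar genes of each member that passed. Of the promoter motifs, 7 were listed from general knowledge, and the AGGTCA site was added after the Bhmt sequence was read. Alternatives were another test, normalization, filter, array weights, variance trend, marker covariates, a fold minimum, mean of probe sets and leaving out each array. Leaving out mouse33 and mouse339 together, and for the pathway genes each in its age, was chosen after seeing the data. The expression of Mat2a was not analysed here.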

Additional observations from a re-analysis of the deposited data

Results flagged for a closer look

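Of 40 groups of 4 or 5 arrays examined (10 probe sets in 4 groups), 5 held 1 array whose gap to the nearest other array took up more of the group's range than Dixon's limit, and chance alone gives about 1 in 20. Among aged fasted mice, Gnmt was highest in mouse33 (9.76), which also had the highest liver marker level. Ethe1 was lowest in young ad libitum fed mouse349 (9.44) and in aged ad libitum fed mouse34 (10.04), both towards the fasted level of their age. Mpst was highest in young ad libitum fed mouse347 (6.05) and in young fasted mouse339 (5.97).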

How the results depend on the processing

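With a change of at least 1.5-fold required as well, the members that passed in young kidneys numbered 1 instead of 6, and the pathway genes that passed 5 instead of 15 in aged and 9 instead of 23 in young kidneys. Among all genes, 2.67% in aged and 6.49% in young kidneys passed with this fold minimum. The pathway genes whose effects differed between the ages numbered 5, and 2 by the ordinary test, 3 with the liver marker covariate, 3 without mouse33 and mouse339, and 3 to 5 when 1 array was left out. No member that passed turned its direction. Among values that did not pass, Gnmt in aged kidneys became -0.068 with the liver covariate and ranged from -0.11 to 0.28 when 1 array was left out. Mpst in young kidneys became -0.00233 after quantile normalization and -0.052 with the fat covariate, with a range of -0.044 to 0.14 on leaving out 1 array. Csad in young kidneys became 0.025 with the fat covariate. The difference between ages became 0.010 for Gnmt with arrays centred on their median, -0.17 for Bhmt after quantile normalization and -0.047 without mouse33 and mouse339, and 0.039 for Cth with the fat covariate. On leaving out 1 array it ranged from -0.38 to 0.34 for Bhmt, -0.28 to 0.11 for Gnmt, -0.13 to 0.044 for Cth and -0.030 to 0.15 for Mpst. The paper describes matching mice in pairs by body weight and sex before they were assigned to a group. The labels of the array samples name no pairs, so no paired analysis was possible. With 4 or 5 arrays a group, small changes of Mpst, Gnmt and Csad could not be separated from the spread between mice.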
